A study of Mus musculus with 965 samples.

Results

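Imprinted genes are genes of which 1 parental copy is mainly used, and 33 of them were followed here through the differentiation of mouse embryonic stem cells that lack 1 of the de novo DNA methyltransferases. They were taken from a list of imprinted genes given by name, which was chosen with earlier results of these data known. All 33 were among the 36849 genes of the count table and among the 24083 genes that passed the filter on low counts. Single cells of embryoid bodies, the aggregates that these stem cells form once leukemia inhibitory factor is withdrawn, had been sequenced with Smart-seq2, a full-length method that keeps no count of molecules. The 965 cells came from E14 stem cells of 3 genotypes: WT, 3AKO (Dnmt3a-/-) and 3BKO (Dnmt3b-/-). WT was 1 line (230 cells), 3AKO was the clones 3A2 and 3A38 (363 cells), and 3BKO was the clones 3B126 and 3B77 (372 cells). Cells were collected at day 3 (365 cells), day 6 (348 cells) and day 8 (252 cells), and for clone 3A2 only days 3 and 6 were analysed here. All cells shared the E14 background and the same withdrawal of the factor, so no undifferentiated cells served as a baseline. WT was not a set of clones, and a difference between a knockout genotype and WT rested on 2 clones against 1 line.

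In mammals, methylation laid down in the egg or the sperm marks imprinting control regions, and the marked and unmarked copies are then read differently. After fertilisation the marks are held by maintenance methylation and by zinc finger proteins such as ZFP57, which binds a methylated hexamer. Many imprinted genes act in growth, placenta, mesoderm and brain, and the counts used here carry no parental information, so a level is the sum of both copies. The genes lie in clusters, and they are described below cluster by cluster within each pattern.

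Promoter windows of 300 bases (250 before and 50 after an annotated start) from RefSeq on GRCm38.p6 were found by symbol for 27 of the 33 genes. H19, Peg10, Sgce, Cdkn1c, Rtl1 and Impact are named without one. The ZFP57 hexamer TGCCGC, read on both strands, was present in 10 of 42 windows of these genes (23.8%) and in 3813 of 32851 windows of all genes (11.6%). It was present in at least 1 window of 9 genes, which were Grb10, Igf2, Meg3, Mest, Nnat, Plagl1, Snrpn, Zdbf2 and Zim1. The windows of imprinted genes held a median of 12.5 CpG sites, against 7 over all windows. Windows of the same gene can overlap and are not independent, and a match is a description of letters and not of binding. The windows of 3 of these genes whose levels are described in detail, 1 each for the differences between days, cells and clones, are shown with the hexamer, or its reverse complement, in capitals. The Mest window (chr6:30737800-30738099, plus strand) held 2 matches and 17 CpG sites, the Plagl1 window (chr10:13090582-13090881, plus strand) 1 match and 26 CpG sites, and the Grb10 window (chr11:12037371-12037670, minus strand) 1 match and 45 CpG sites.
Mest: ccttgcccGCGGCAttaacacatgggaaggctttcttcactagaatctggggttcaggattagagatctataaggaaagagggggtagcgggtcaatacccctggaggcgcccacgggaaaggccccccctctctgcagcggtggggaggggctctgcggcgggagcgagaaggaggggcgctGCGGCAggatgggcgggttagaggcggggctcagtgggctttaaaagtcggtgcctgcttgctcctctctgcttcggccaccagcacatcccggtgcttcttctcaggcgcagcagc
Plagl1: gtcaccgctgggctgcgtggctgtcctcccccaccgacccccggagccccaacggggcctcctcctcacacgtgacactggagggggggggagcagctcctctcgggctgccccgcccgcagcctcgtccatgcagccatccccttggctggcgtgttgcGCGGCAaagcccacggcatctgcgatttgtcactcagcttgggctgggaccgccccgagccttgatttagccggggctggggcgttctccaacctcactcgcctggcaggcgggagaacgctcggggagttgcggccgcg
Grb10: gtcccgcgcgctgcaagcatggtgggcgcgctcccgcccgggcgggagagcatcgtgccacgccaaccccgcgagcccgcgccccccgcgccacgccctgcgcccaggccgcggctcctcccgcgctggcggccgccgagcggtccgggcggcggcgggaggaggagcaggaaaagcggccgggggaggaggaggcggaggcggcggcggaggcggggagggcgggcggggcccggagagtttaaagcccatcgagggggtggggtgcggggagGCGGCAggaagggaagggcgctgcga

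The libraries, 1 plate for each clone and day except for WT at day 8 with plates C343 and C344, held 5500198 to 44529830 reads, and cells held 50096 to 3442378 reads (median 255315). The 3AKO clones formed batch 1, 3B77 formed batch 3, and WT shared batch 2 with 3B126, so batch and genotype cannot be told apart except between WT and 3B126. Dnmt3a at day 3 stood at 24.1 CPM (counts scaled to a common library total) in 3A2 and 12.99 CPM in 3A38, compared with 118 to 153 CPM elsewhere, and Dnmt3b at 17.8 CPM in 3B126 and 35.3 CPM in 3B77, compared with 239 to 285 CPM elsewhere. Dnmt3a stayed lowest in 3AKO at days 6 and 8, but Dnmt3b at day 6 was higher in 3B126 (37.3 CPM) than in 3A38 (11.9 CPM), and its day 8 levels lay between 0.651 and 5.50 CPM in every clone, so it checks the 3BKO labels at day 3 only. At day 8 the labels were in doubt. At least 3 reads of 4 Y-linked genes were present in 0 of the cells of 3B77 at days 3 and 6 and of 3B126 on all days, but in 27.5% of the cells of the library labelled 3B77 day 8, and in 0% of the cells of WT plate C344 against 31.1% and 53.7% of WT cells at days 3 and 6. That library is called the library labelled 3B77 day 8 throughout, and the calls between days, the side counts, the comparison of single cells and the leading classes are also given without the libraries in doubt.

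Levels of the 33 genes differed widely. Per kilobase of exon, the mean level over the 14 sums of clone and day was highest for Impact (262 CPM per kb), an inhibitor of the kinase GCN2, for the zinc finger gene Peg3 (73.2) and for the splicing gene Snrpn (70.1). It was lowest for the trophoblast regulator Ascl2 (0.135 CPM per kb), the growth factor Igf2 (0.221) and the transporter Slc22a18 (0.294). Reads were few for Ascl2 (67 reads in 19 cells), Slc22a18 (153 reads in 18 cells), Igf2 (481 reads in 99 cells) and H19 (613 reads in 11 cells), and 20 of the 33 genes had a read in every one of the 14 sums. Exons of Igf2 were shared with other genes over 64.5% of their length, those of Snrpn over 34.1%, of Cdkn1c over 30.7%, of Mest over 23.1% and of Gnas over 21.97%, and because the sources used here give no strand setting for the counting, reads of overlapping genes cannot be separated.

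**Figure D1:**
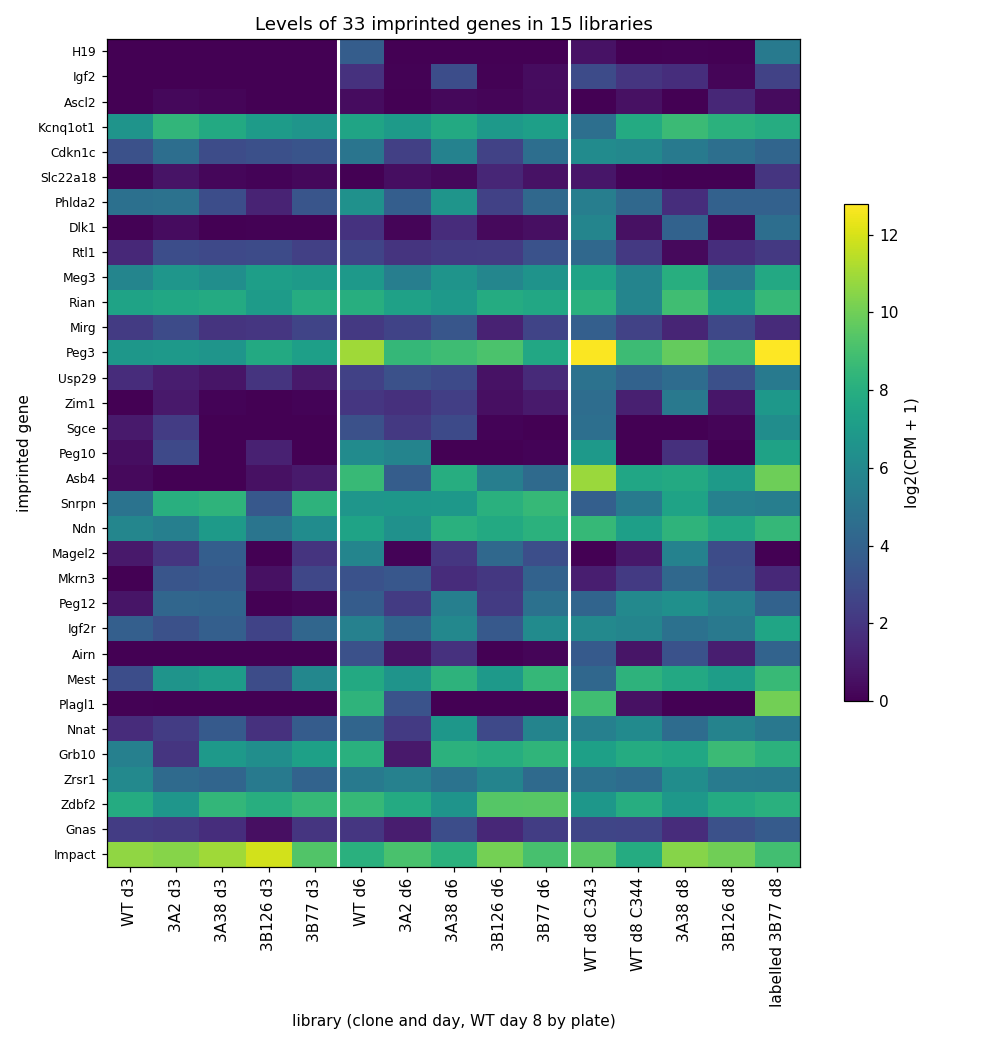
Heat map of log2(CPM + 1) (colour) of the 33 imprinted genes (rows) in 15 libraries (columns, grouped by day, with WT day 8 shown by plate). Impact and Peg3 are bright throughout, Grb10 is dark in both libraries of clone 3A2, and Peg10 and Plagl1 are bright in few libraries.

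The first question was whether the imprinted genes differed between knockout and WT embryoid bodies. In the edgeR quasi-likelihood test on the sums, 0 of the 33 genes passed an adjusted p of 0.05 in any of the 9 contrasts between genotypes at a given day. Over all genes, 0% were called in 8 of these contrasts, and 0.00415% in 3BKO over 3AKO at day 8. The knocked-out genes Dnmt3a and Dnmt3b were not called either, so the absence of calls does not show that levels were alike. At an unadjusted p under 0.05, the imprinted genes numbered 6 in 3AKO over WT (18.2% of them, against 7.62% of all genes), 3 in 3BKO over WT (9.09% against 3.13%) and 3 in 3BKO over 3AKO (9.09% against 5.66%) at day 3. They numbered 1, 4 and 3 at day 6 (3.03%, 12.1% and 9.09%, against 1.42%, 1.86% and 3.03% of all genes), and 3, 0 and 1 at day 8 (9.09%, 0% and 3.03%, against 5.66%, 1.58% and 7.93%). DESeq2 called Mest and Mkrn3 in 3AKO over WT at day 3 (2.95% of all genes) and Asb4 and Peg12 in 3BKO over 3AKO at day 3 (1.76%). It called Plagl1 in 3BKO over WT at day 6 (0.282%), in 3BKO over 3AKO at day 6 (0.561%) and in 3AKO over WT at day 8 (2.19%), Plagl1 and Sgce in 3BKO over 3AKO at day 8 (3.67%), and none of the 33 in 3BKO over WT at day 3 (0.88%) or day 8 (0.0747%) or in 3AKO over WT at day 6 (0.191%). The common biological dispersion of the sums was 0.932, and in such sums fewer cells of a type and less RNA per cell cannot be told apart.

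By position alone, 12 of the 33 genes lay above WT in both 3AKO clones at day 3 (36.4%, against 37.1% of all genes tested), 10 below in both (30.3% against 29.8%), and 11 lay on both sides or were level. At day 6, 2 lay above (6.06% against 23.1%) and 20 below (60.6% against 25.8%). In 3BKO, 9 lay above (27.3% against 21.7%) and 9 below (27.3% against 25.4%) at day 3, and 5 above (15.2% against 25.8%) and 18 below (54.5% against 28.3%) at day 6. The shares at day 3 were thus near those of all genes, and at day 6 more of the 33 than of all genes lay below WT. The median log2 fold change of the 33 genes in 3AKO over WT was 0.18 at day 3 against 0.35 over all genes, and -0.62 at day 6 against 0.16. In 3BKO over WT it was 0.05 at day 3 against 0.18 over all genes, and -0.60 at day 6 against 0.04. With genes unread in 1 group set to the bound that 3 reads allow, and those at or under 3 reads in both left out, the median of 3BKO over WT at day 3 became 0.22, and the other 3 medians were as before. Among 43 other imprinted genes that were tested, the day 6 medians were 0.935 in 3AKO over WT (28 higher) and 0.07 in 3BKO over WT (22 higher). The lower position at day 6 was thus not shared by that list, which was also chosen with earlier results of these data known. At day 8, 16 of the 33 genes lay above WT (48.5%, against 40% of all genes) and 17 below (51.5% against 49%) in 3A38, and in 3BKO 7 lay above (21.2% against 16.1%), 6 below (18.2% against 31.7%) and 20 on both sides. With the libraries in doubt left out, 3B126 was above WT plate C343 in 13 genes (39.4% against 52.8%) and below it in 20 (60.6% against 25%), on the scale of CPM without TMM. WT was 1 sum of cells at each day, so every gene's side of WT rests on that sum.

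The genes with the largest fold changes on 1 side of WT follow. Mkrn3, a RING finger gene of the Snrpn cluster, had 0 reads in WT at day 3 and stood at 8.56 CPM in 3A2, 11.001 CPM in 3A38, 0.843 CPM in 3B126 and 4.87 CPM in 3B77. All 4 knockout clones thus lay above WT. The 3AKO clones summed to at least 66.2-fold and the 3BKO clones to at least 22.6-fold the level that 3 reads would have given in WT, with edgeR adjusted p = 0.506 and 1. The pair that shared a batch, WT and 3B126, held the lowest values. At day 6 WT was at 8.41 CPM, between 1.46 and 12.3 CPM of the 4 knockout clones, and so inside their range.

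Zim1, a zinc finger gene next to Peg3 that is read from the maternal copy, also had 0 reads in WT at day 3. It was at 0.778 and 0.0823 CPM in 3A2 and 3A38, at 0.0562 CPM in 3B126 and at 0.0663 CPM in 3B77, which rests on 23, 3, 1 and 2 reads. The levels outside 3A2 were at or under the floor of 3 reads, and edgeR gave adjusted p = 0.702 for 3AKO over WT. Sgce, the gene of epsilon-sarcoglycan, had 1.30 CPM in WT at day 3 and no read in either 3BKO clone, against 3.59 CPM in 3A2 and 0 in 3A38, so that 3BKO stood at least 20.7-fold lower than WT by the 3 read bound (edgeR adjusted p = 1).

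Peg3 itself, read from the paternal copy, stood on 1 side of WT at day 6. It was at 1987 CPM in WT, 446.5 CPM in 3A2, 309 CPM in 3A38, 723 CPM in 3B126 and 141 CPM in 3B77. All 4 knockout clones lay below WT, with a 3AKO over WT log2 fold change of -2.40 ± 1.23 (SE) and an edgeR adjusted p of 1. At day 3 the values had been 148 CPM in WT, 108 and 98.3 CPM in 3A2 and 3A38, 376 CPM in 3B126 and 125.8 CPM in 3B77, which overlapped. Magel2, a MAGE family gene of the Snrpn cluster, was at 55.1 CPM in WT at day 6, 0.106 and 2.16 CPM in 3A2 and 3A38, 24.5 CPM in 3B126 and 5.23 CPM in 3B77 (3AKO over WT log2 fold change -5.59 ± 2.74, edgeR adjusted p = 1). The position of WT rests on few cells, since 78.1% of its Magel2 reads at that day came from 1 cell.

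The Igf2r, Phlda2 and Cdkn1c genes, which are read from the maternal copy and restrain growth, were read in all 14 sums. Igf2r, which takes up and degrades IGF2, was at 18.8 CPM in WT at day 3 and at 7.44, 13.4, 8.48 and 15.5 CPM in 3A2, 3A38, 3B126 and 3B77. Phlda2 was at 35.5 CPM in WT at day 3 and at 25.1, 7.19, 2.47 and 8.19 CPM in the same clones, and at day 6 it was at 87.7 CPM in WT and at 15.7, 70.7, 5.77 and 13.4 CPM. WT held the highest Phlda2 value on both days, and none of these differences passed the test. Cdkn1c, the gene of the cell cycle inhibitor p57, was at 11.2 CPM in WT at day 3 and at 22.1, 6.75, 13.1 and 7.79 CPM in the knockout clones, which lay on both sides of WT.

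The noncoding RNAs of the Dlk1 and Meg3 cluster are read from the maternal copy as 1 long domain. Meg3 at day 3 was at 77.6 CPM in WT, 98.1 and 78.2 CPM in 3A2 and 3A38, 250 CPM in 3B126 (63.5% of its reads in 1 cell) and 108 CPM in 3B77, and Rian was at 234, 180, 220, 226 and 204 CPM in that order. At day 6 Rian was at 255, 189, 84.4, 292 and 146 CPM. Meg3 and Rian were therefore read in every clone on both days, and their clones differed by less than 4-fold on each. At day 8 they differed more, with Meg3 at 71.04, 319, 27.3 and 176 CPM and Rian at 97.8, 577, 91.3 and 314 CPM in WT, 3A38, 3B126 and the labelled 3B77 library. Kcnq1ot1, the antisense RNA that silences its neighbours in cis, was at 134, 315.3, 215, 224 and 86.4 CPM in WT, 3A2, 3A38, 3B126 and 3B77 at day 3.

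Clone 3A2 stood apart from all other clones in Grb10, which encodes an adaptor of the insulin and IGF receptors and is read from the maternal copy in most tissues and from the paternal copy in neurons. Grb10 was chosen after its values were seen. At day 3 it was at 2.67 CPM in 3A2 and at 65.4 CPM in WT, 118 CPM in 3A38, 136 CPM in 3B126 and 131 CPM in 3B77. At day 6 it was at 0.992 CPM in 3A2 and at 272, 207, 312 and 236 CPM in the same order. After each cell was thinned to 50000 reads, a Grb10 read was present in 9 of 69 cells of 3A2 at day 3 (13.04%, exact 95% interval 6.14 to 23.3) and in 1 of 80 cells at day 6 (1.25%, 0.0316 to 6.77). In the other clones the share was 50.7% to 88.6% at day 3 and 89.6% to 95.8% at day 6. The other 3AKO clone thus lay with WT and 3BKO, and the 3AKO over WT log2 fold change of the edgeR fit was -0.12 ± 2.35 at day 3 and -1.39 ± 2.28 at day 6 (adjusted p = 1 on both days).

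A rule added after the values were seen asked how often 1 clone lay under 1/20 of the median of the other 4 clones on both days, among genes whose median was at least 10 CPM. Grb10 was the 1 gene of 5841 (0.0171%) that met it in 3A2. The count was 4 of 5792 genes in 3A38 (0.0691%), 1 of 6014 in WT (0.0166%) and 0 of 5979 and 0 of 5841 in 3B126 and 3B77 (0%), with none of the 13 or 14 imprinted genes eligible in these 4 clones among them. The low level of 3A2 was present within like cells. Among epiblast-like cells it was at 1.72 CPM in 3A2 (9 of 65 cells with a read), against 109 CPM in 3A38 (66 of 69 cells), 74.2 CPM in WT of days 3 and 6 (47 of 52 cells), 153 CPM in 3B126 and 157 CPM in 3B77. In an unnamed cluster of 65 cells, 0 of 17 cells of 3A2 had a Grb10 read, which allows a share of up to 17.6% (taken as 3 cells of the total here and for the other counts of 0), against 14 of 15 cells of 3A38 and 9 of 11 of WT.

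The neighbouring genes Peg10 and Sgce, read from the paternal copy, were read in 3A2. Peg10, a gene derived from a retrotransposon and needed in the placenta, was at 5.65 CPM in 3A2 at day 3 and 64.6 CPM at day 6. In the other clones at day 3 it was at 0.549 CPM in WT, 0 in 3A38, 2.14 CPM in 3B126 from a single cell and 0 in 3B77. At day 6 it was at 69.8 CPM in WT, 0 in 3A38, 0 in 3B126 and 0.0671 CPM in 3B77. WT and 3A2 overlapped at day 6 while the other 3 clones lay at or near 0. The 3BKO over WT log2 fold change at day 6 was -10.78 ± 6.34 for Peg10 and -7.06 ± 3.32 for Sgce (edgeR adjusted p = 1 for both).

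WT and 3A2 reached these levels through different numbers of cells. A Peg10 read was present after thinning in 53.8% of 3A2 cells at day 6 and in 14.9% of WT cells, and a single cell held 56.1% of the WT reads and 9.17% of those of 3A2. At day 8, Peg10 was read after thinning in 4 of 21 cells (19.05%) of WT plate C343 and, in the library labelled 3B77 day 8, in 14 of 40. It was read in 0 of 68 cells of WT plate C344, which allows up to 4.41%, in 0 of 51 cells of 3B126 (up to 5.88%) and in 2 of 72 cells of 3A38. Sgce at day 6 was at 7.96 CPM in WT, 4.005 CPM in 3A2, 4.48 CPM in 3A38, 0.113 CPM in 3B126 and 0 in 3B77, and 92.0% of the 3A38 reads came from 1 cell.

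Plagl1, the gene of a zinc finger transcription factor that restrains growth and is read from the paternal copy, had a read in 24 of 965 cells. At day 3 it was at 0.0998 CPM in WT, 0.0562 CPM in 3B126 and 0 in the other 3 clones. At day 6 it was at 313.1 CPM in WT, 10.6 CPM in 3A2 and 0 in 3A38, 3B126 and 3B77, and in WT 6 cells held the reads, of which 1 held 81.4%. At day 8 it was at 911 CPM in the library labelled 3B77 day 8 (9 cells), 117 CPM in WT (5 cells) and 0 in 3A38 and 3B126. By plate, the WT reads lay on C343 (2573 reads, 77.96% of them in 1 cell), with 6 reads on C344. At day 6 the 3AKO over WT log2 fold change was -5.89 ± 4.94, and 3BKO, with no read, stood at least 5879.5-fold lower than WT by the 3 read bound (edgeR adjusted p = 1 for both). Both values rest on the 6 WT cells.

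**Figure D2:**
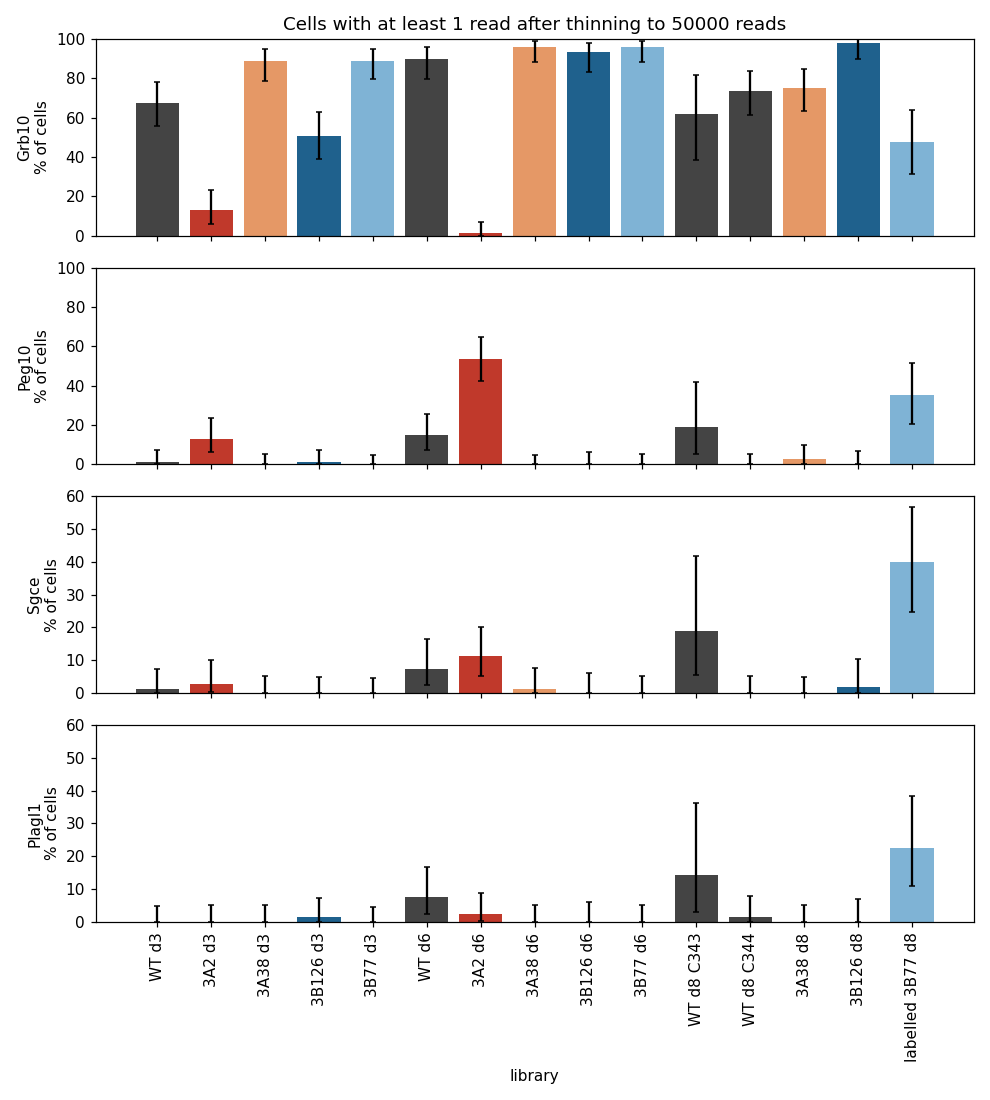
Percent of cells with at least 1 read after thinning to 50000 reads (y axis) for Grb10, Peg10, Sgce and Plagl1 (panels) in 15 libraries (x axis), with exact 95% intervals of counting error as bars. Grb10 stands at 13.04% and 1.25% in 3A2 and Peg10 at 53.8% in 3A2 at day 6.

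Single cells were then compared in the 3 libraries with a Plagl1 read in at least 3 cells, which were WT day 6, WT plate C343 and the library labelled 3B77 day 8. This comparison was added after the values were seen and is a description with no test. Of the 24 cells with a Plagl1 read in the series, 20 had a Peg10 read, against 95 of the 941 cells without one. In the library labelled 3B77 day 8, 1 cell had reads of both Grb10 and Peg10, 20 had Grb10 alone, 13 had Peg10 alone and 6 had neither. On WT plate C343 these counts were 0, 14, 5 and 2, and at WT day 6 they were 7, 54, 4 and 2. In 3A2 at day 6 they were 2, 3, 53 and 22, and in 3A38 and 3B126 at day 6 no cell had a Peg10 read while 71 of 72 and 54 of 58 had a Grb10 read.

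**Figure D3:**
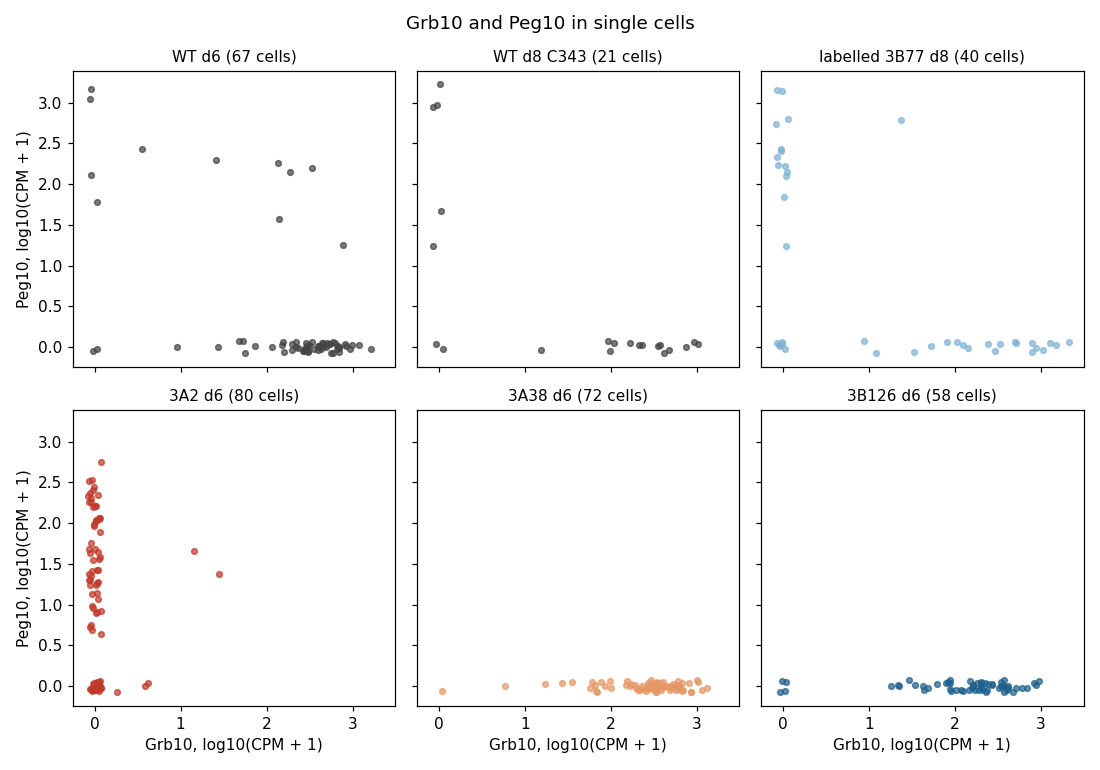
Grb10 (x axis) and Peg10 (y axis) in single cells, each as log10(CPM + 1) with a small random shift, in 6 libraries. Most cells of WT plate C343 (14 with Grb10 alone, 5 with Peg10 alone) and of the library labelled 3B77 day 8 (20 and 13) lie on 1 of the axes. Of the 80 cells of 3A2 at day 6, 53 lie on the Peg10 axis and 22 have a read of neither gene.

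Over all genes read in at least 10 of these 128 cells, the share of cells with a read was over 50 percentage points higher in the 30 cells with Peg10 than in the 98 without for 2 of 11839 genes (0.0169%), which were Plagl1 and Sgce. The libraries had been picked by their Plagl1 reads, so the place of Plagl1 in this count is no independent result. Plagl1 was read in 2 of 78 Peg10 cells of clone 3A2 and in 1 of 7 Peg10 cells of the other 10 libraries. The share was over 50 points lower for 4 genes (0.0338%), which were Grb10, Rps4l, Tsnax and Tspan6. Grb10 was read in 8 of 30 cells with Peg10 and in 88 of 98 without, Sgce in 24 and 11, and Plagl1 in 17 and 1. Nnat, a gene of neurons and of endocrine tissue, was read in 5 and 54 of these cells. Rps4l was read in 3 of 30 and 72 of 98, but in 76 of 78 Peg10 cells of clone 3A2, where no gene of 13262 met the rule in either direction (0%). Cells with and without Peg10 held a median of 257556 and 178966 reads, and 5 of 30 and 45 of 98 of them had the Y-linked reads. The part of these differences in the result was not tested. In the 2 WT libraries alone, Grb10 was read in 7 of 16 cells with Peg10 and 68 of 72 without, Sgce in 12 and 6, and Plagl1 in 8 and 1. By the same rule 2 of 10895 genes were then higher (0.0184%, Cd302 and Sgce) and 5 lower (0.0459%, Grb10 among them), Plagl1 being read in too few cells to enter.

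The same comparison was then made in the mesenchyme-like cells alone. They are part of the cells above, from libraries picked by their Plagl1 reads, so neither the pattern nor the place of Plagl1 is an independent result here. Of the 46 mesenchyme-like cells in these 3 libraries, 11 had reads of both Plagl1 and Peg10 and 35 had reads of neither. Grb10 was read in 1 of the 11 and 33 of the 35, Nnat in 0 and 27, Dlk1 in 2 and 26, Zim1 in 2 and 24, and Asb4 in 5 and 31. Sgce was read in 9 of the 11 and 4 of the 35, whereas Peg3 was read in all 46 and Meg3 in 11 and 30. Among 6779 genes, 7 were over 50 points higher (0.103%) and 26 lower (0.384%), and the imprinted ones among them were Plagl1 and Sgce (higher) and Grb10, Nnat, Dlk1 and Zim1 (lower), of 25 imprinted genes that were read in at least 10 of these cells. Of these cells, 0 of 11 and 9 of 35 had the Y-linked reads. In the 2 WT libraries alone 5 and 18 such cells remained, of which Grb10 was read in 0 and 17, Nnat in 0 and 14, Dlk1 in 0 and 14, Zim1 in 2 and 11 and Sgce in 5 and 1. There 40 of 3869 genes were higher (1.03%) and 112 lower (2.89%). The imprinted ones among them were Usp29 (higher) and Dlk1, Snrpn, Nnat and Grb10 (lower), of 21 imprinted genes that could be scored. Zim1 no longer met the rule.

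The genes of a cluster were also read together to different degrees. After thinning, Meg3 and Rian were read together in 539 of 781 cells with either (69.01%, 65.6 to 72.2), and Snrpn and Ndn, which lie in the same domain, in 458 of 862 (53.1%, 49.7 to 56.5). Sgce and Peg10, which share a promoter region, were read together in 25 of 98 cells (25.5%, 17.2 to 35.3), and Peg10 was read in 64.1% of Sgce cells against 6.37% of other cells. Zim1 was read in 10.0% of Peg3 cells and 0.593% of other cells. H19 and Igf2 were read together in 1 of 50 cells (2.00%, 0.0506 to 10.6). These shares depend on the levels of both genes, since a low gene is seen in few cells.

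At day 3 the 2 libraries of batch 2 stood together in Snrpn, Mkrn3 and Mest. Mest, a gene of an alpha/beta hydrolase protein, is read from the paternal copy. It was at 9.98 CPM in WT and 11.9 CPM in 3B126, against 88.6 CPM in 3A2, 129.7 CPM in 3A38 and 50.7 CPM in 3B77. Snrpn was at 39.3 CPM in WT and 18.1 CPM in 3B126, against 246, 311 and 264 CPM in 3A2, 3A38 and 3B77. For both genes WT and 3B126 did not overlap the other clones, and 3B126 did not lie with 3B77, the other 3BKO clone. Over 4-fold lower values in WT and 3B126 than in each other clone were present for Mest, Mkrn3 and Snrpn among 19 imprinted genes with at least 10 CPM in a clone, and for 372 of 9123 genes in all (4.08%). Over 4-fold higher values were present for none of the 19 and for 482 of all genes (5.28%).

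The edgeR log2 fold changes of 3AKO over WT at day 3 were 3.45 ± 1.18 for Mest (adjusted p = 0.533), 2.82 ± 1.26 for Snrpn (adjusted p = 0.635) and 4.10 ± 1.62 for Peg12 (adjusted p = 0.579), and none passed. Peg12, a FRAT family gene of the WNT pathway, was at 16.3 CPM in both 3A2 and 3A38 and at 0.948 CPM in WT, 0 in 3B126 and 0.0995 CPM in 3B77. The 3AKO clones did not overlap the others, and they made up batch 1, so that genotype and batch cannot be told apart. In 3BKO over WT at day 3, the log2 fold change of Peg12 was -3.94 ± 1.46 (edgeR adjusted p = 1). Levels in epiblast-like cells alone pool the days, days 3 and 6 for WT, 3A2 and 3B77 and all days for 3A38 and 3B126. Snrpn was there at 47.8 CPM in WT and 161 CPM in 3B126, against 271, 298 and 305 CPM in 3A2, 3A38 and 3B77. Mest was at 10.6 CPM in WT, 50.9 CPM in 3B126 and 97.7, 122 and 78.1 CPM in the others. Since Snrpn over all cells of 3B126 was at 353 CPM at day 6, these values do not show the day 3 difference within the class.

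**Figure D4:**
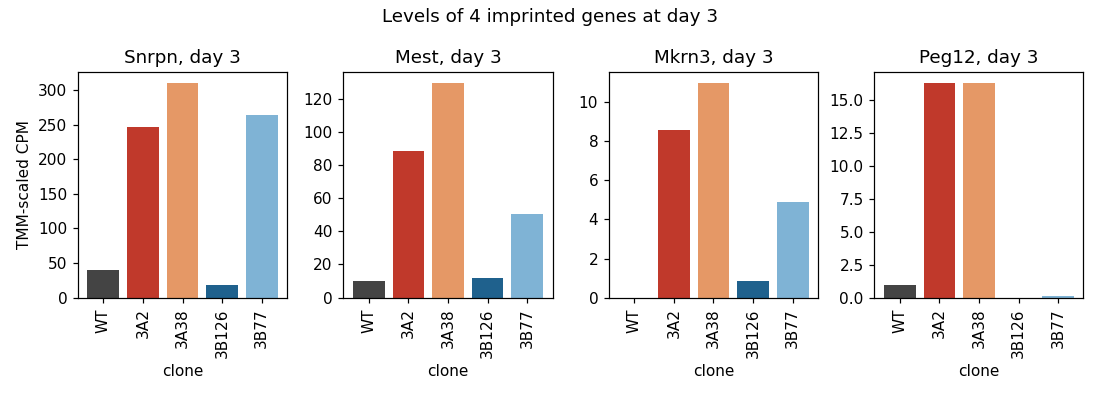
CPM scaled by TMM (bars from 0, y axis) of Snrpn, Mest, Mkrn3 and Peg12 at day 3 in each clone (x axis), 1 library a bar, with no error bar. WT and 3B126 hold the 2 lowest bars in Snrpn (39.3 and 18.1), Mest (9.98 and 11.9) and Mkrn3, and 3A2 and 3A38 hold the highest in Peg12 (16.3 each).

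Time in culture was the comparison in which edgeR called imprinted genes. In this test, 1 of the 33 genes was called higher at day 6 than at day 3 (0.0374% of all genes called, in either direction) and 5 were called higher at day 8 (0.822%), with none called lower. At day 6, 25 of the 33 were higher and 8 lower, with a median log2 fold change of 1.46 against 0.11 over all genes, and at day 8 the numbers were again 25 and 8, with a median of 1.95 against -0.01. At an unadjusted p under 0.05, 13 and 16 of the 33 were counted (39.4% and 48.5%, against 11.6% and 16.3% of all genes), and DESeq2 called 8 at day 6 (5.93% of all genes) and 14 at day 8 (11.4%). In position alone, 9 genes were higher at day 6 than at day 3 in every clone (27.3%, against 5.34% of all genes tested) and 14 were higher at day 8 in each of the 4 clones with day 8 cells (42.4% against 9.08%).

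Asb4, a gene read from the maternal copy that encodes an adaptor of protein degradation and is known from developing vessels, was called higher on both days. It was at 0.349 CPM in WT, 0 in 3A2, 0.0274 CPM in 3A38, 0.843 CPM in 3B126 and 0.796 CPM in 3B77 at day 3, and at 387, 15.4, 170, 54.7 and 14.5 CPM at day 6. At day 8 it was at 560 CPM in WT, 261 CPM in 3A38, 100.2 CPM in 3B126 and, labelled 3B77, 843 CPM. All day 6 and day 8 values lay above all day 3 values. The log2 fold change was 9.23 ± 1.25 (edgeR adjusted p = 0.0261) at day 6 and 11.16 ± 1.36 (edgeR adjusted p = 0.00617) at day 8. Without clone 3B126 or after thinning, the adjusted p at day 6 was 0.0601 and 0.0738. The day 6 call was also lost with the clone as a replicate block in limma, and it was kept with that block in edgeR.

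The Peg3 and Snrpn clusters held the next pair. Zim1 was at 0 to 0.778 CPM at day 3, at 3.10 CPM in WT, 2.94 CPM in 3A2, 2.90 CPM in 3A38, 0.528 CPM in 3B126 and 0.637 CPM in 3B77 at day 6, and at 6.42 CPM in WT, 43.5 CPM in 3A38, 0.565 CPM in 3B126 and 94.5 CPM in the labelled 3B77 library at day 8. Its log2 fold change at day 8 was 8.84 ± 1.67 (edgeR adjusted p = 0.0275, and 0.0549 after thinning). Each of the 4 clones was above its own day 3 value, and 3B126 stayed below the day 3 value of 3A2. Peg12 was at 12.1 CPM in WT, 4.501 CPM in 3A2, 31.01 CPM in 3A38, 4.71 CPM in 3B126 and 18.5 CPM in 3B77 at day 6 and at 38.4 CPM in WT, 102 CPM in 3A38, 37.4 CPM in 3B126 and 13.01 CPM in the labelled 3B77 library at day 8. The log2 fold change of Peg12 at day 8 was 5.55 ± 0.97 (edgeR adjusted p = 0.0212), and with the clone as a replicate block it was 4.77 (edgeR adjusted p = 0.156).

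Airn, the antisense RNA that silences Igf2r on the paternal copy, had 0 reads in all 5 day 3 libraries. At day 6 it was at 7.87 CPM in WT, 0.673 CPM in 3A2, 1.80 CPM in 3A38, 0.0377 CPM in 3B126 and 0.101 CPM in 3B77, and at day 8 at 3.23 CPM in WT, 10.4 CPM in 3A38, 0.903 CPM in 3B126 and 13.1 CPM in the labelled 3B77 library. Summed over clones it was at least 78.6-fold higher at day 6 and at least 314-fold higher at day 8 than the level 3 reads would have given at day 3, and the fitted day 8 test gave edgeR adjusted p = 0.0302. A single cell held 81.2% of the WT reads at day 6 and 77.98% of those of 3A38 at day 8, and without clone 3A38 or after thinning the adjusted p was 0.0539 and 0.0530. Igf2r, its overlapping partner, was at 45.6, 32.4, 28.0 and 154 CPM in WT, 3A38, 3B126 and the labelled 3B77 library at day 8 (log2 fold change over day 3 1.95 ± 0.66, edgeR adjusted p = 0.158).

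Mest was at 214 CPM in WT, 118 CPM in 3A2, 211 CPM in 3A38, 145 CPM in 3B126 and 257 CPM in 3B77 at day 6, and at 169 CPM in WT, 256 CPM in 3A38, 111 CPM in 3B126 and 332 CPM in the labelled 3B77 library. Its log2 fold change at day 8 was 2.71 ± 0.60 (edgeR adjusted p = 0.0473). The call was lost with the clone as a replicate block (edgeR adjusted p = 0.115), without WT (edgeR adjusted p = 0.156) and without both libraries in doubt, C344 and the one labelled 3B77 day 8 (1.31, edgeR adjusted p = 0.234). The other 4 genes stayed called without those libraries, when 6 of the 33 were called in all. Without the sum of 3A38 at day 8, the largest library, 0 of the 33 were called at day 8 by edgeR (16 at an unadjusted p under 0.05), with adjusted p of 0.0870 for Asb4, 0.134 for Peg12, 0.169 for Zim1 and Mest and 0.184 for Airn.

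Peg3, Dlk1, Ndn and Nnat were higher on average at day 8 than at day 3 and were called by DESeq2 but not by edgeR. Peg3 was at 1869 CPM in WT, 1044 CPM in 3A38, 359 CPM in 3B126 and 5915 CPM in the labelled 3B77 library (log2 fold change 3.55 ± 0.83, edgeR adjusted p = 0.0628). Dlk1, a transmembrane protein of the Notch ligand family, was at 14.2, 18.6, 0.113 and 19.9 CPM in the same order (7.30 ± 1.76, edgeR adjusted p = 0.0634), and was 0.0274 to 0.304 CPM at day 3. Its level in 3B126 at day 8 was within the range of day 3. Impact went the other way. It was at 2270.4 CPM in WT, 1314 CPM in 3A2, 1976 CPM in 3A38, 6559 CPM in 3B126 and 551 CPM in 3B77 at day 3, at 276, 662, 202, 1388 and 384 CPM at day 6 and at 308, 1727, 821 and 409 CPM in WT, 3A38, 3B126 and the labelled 3B77 library at day 8. It was lower than at day 3 in 5 of 5 clones at day 6 and in 4 of 4 at day 8. DESeq2 called it at day 6, and edgeR on neither day (log2 fold change at day 8 -1.78 ± 0.74, edgeR adjusted p = 0.242). Zdbf2 was lower in 4 of 4 clones at day 8.

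**Figure D5:**
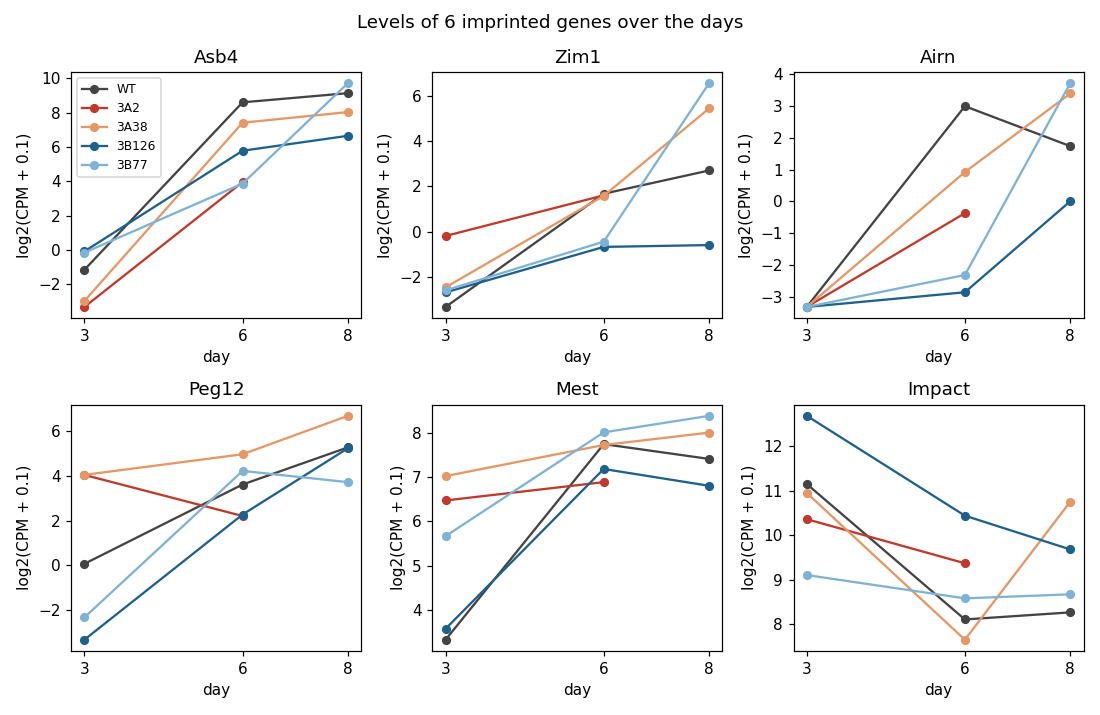
Level of Asb4, Zim1, Airn, Peg12, Mest and Impact, as log2(CPM + 0.1) (y axis), by day (x axis), with 1 line a clone and 1 library a point. Asb4 lies above its day 3 values in every clone on days 6 and 8, and Impact lies below its day 3 value in every clone.

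The cells of the embryoid bodies were clustered without the 33 genes and named by markers, at least 4 of a fixed list among the 300 leading genes. This gave epiblast-like cells (180 and 154 cells in 2 clusters), neural progenitor-like cells (104), mesenchyme-like cells (76), neuron-like cells (38), blood-like cells (37) and endothelial-like cells (29), with 3 clusters unnamed (161, 121 and 65 cells). The blood-like cluster also held 4 macrophage markers. Levels were ranked among the named classes only, here and below, with the 3 unnamed clusters left out. Of the 33 genes, 15 had their highest level in mesenchyme-like cells, 8 in neuron-like, 5 in endothelial-like, 3 in neural progenitor-like, 1 in blood-like and 1 in epiblast-like cells. This was read without a test, since the clones and days differ in the classes they hold. The leading classes of all genes were not counted, so these numbers do not show a trait of imprinted genes. Some leads rest on few cells, such as that of Slc22a18, read after thinning in 2 of 76 mesenchyme-like cells. With the libraries in doubt left out, 29 of the 33 kept their leading class, and mesenchyme-like cells led for 11. Asb4 was then highest in endothelial-like cells (1212 CPM, against 936 CPM in mesenchyme-like cells), Dlk1 in neuron-like, Gnas in neural progenitor-like and Slc22a18 in epiblast-like cells.

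Mesenchyme-like cells held the highest levels of Peg3 (6103 CPM, against 58.3 CPM in blood-like cells), Asb4 (1118 CPM, against 4.25 CPM in neuron-like cells), Plagl1 (647 CPM), Grb10 (440 CPM) and Phlda2 (179 CPM). Neuron-like cells held the highest levels of Rian (968 CPM), Kcnq1ot1 (950 CPM), Meg3 (738 CPM), Ndn (719 CPM), Snrpn (476 CPM) and Magel2 (129 CPM), and Meg3 and Rian were at 0.142 and 0.285 CPM in blood-like cells. Genes of the Snrpn cluster were thus split, since Peg12 was highest in neural progenitor-like cells (160 CPM, against 21.7 CPM in neuron-like cells). Endothelial-like cells held the highest Mest (807 CPM) and Igf2r (129.7 CPM), but with the clusters made at resolution 0.5 or with the 33 genes kept, mesenchyme-like cells held the highest level of both, as they did for Igf2r without integration. H19 was at 30.9 CPM in endothelial-like cells, read in 2 of 29 of them, and at 8.95 CPM at resolution 0.5. Zdbf2 was highest in epiblast-like cells by a small margin (338 CPM, against 336 CPM in neuron-like cells), and the leading class of Impact was also close (1545 CPM in mesenchyme-like and 1500.1 CPM in epiblast-like cells). Without integration no cluster was named neuron-like. Rian, Meg3 and Ndn then led in mesenchyme-like, Snrpn and Magel2 in epiblast-like and Kcnq1ot1 in neural progenitor-like cells. Phlda2 then led in endothelial-like cells and Grb10 in neural progenitor-like cells (466 CPM, against 462 CPM in mesenchyme-like cells). Peg3, Asb4 and Plagl1 stayed highest in mesenchyme-like cells.

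Within mesenchyme-like cells the sources differed. Plagl1 was read in 0 of 29 cells of 3A38, which allows up to 10.3%, in 3 of 14 cells of WT plate C343 (881 CPM) and in 6 of 23 of the library labelled 3B77 day 8. Peg10 was at 0.839 CPM in 3A38 (1 cell), 210 CPM on C343 (3 cells) and 207 CPM (6 cells) in the library labelled 3B77 day 8. Peg3 was read in every one of these cells, at 2581, 11815 and 11751 CPM in that order. Grb10 was read in 29 of 29, 10 of 14 and 17 of 23 of the cells.

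Other imprinted genes and the genes that protect imprints were counted for comparison. Of 48 further imprinted genes listed, 46 were in the table and 43 were tested, and edgeR called 0 of them in all 11 contrasts. At an unadjusted p under 0.05 they numbered 0 to 5 in the genotype contrasts (1.42% to 7.93% of all genes) and 4 and 10 in the day contrasts (11.6% and 16.3% of all genes), and DESeq2 called 0 to 4 and 3 and 8. At day 6 over day 3, 22 of the 43 were higher (median log2 fold change 0.08, against 1.46 for the 33 genes). At day 8 over day 3, 24 of them were higher (0.53 against 1.95). The rise with days was thus larger in the 33 genes than in this list, but both lists were chosen with earlier results of these data known. The highest levels among the further imprinted genes were those of Cd81 (212 CPM as a mean over the sums), Ube3a (154), Slc38a4 (151) and Commd1 (130). Of 15 genes of methylation and imprint protection, edgeR called 0 between genotypes (0 to 3 at an unadjusted p under 0.05, and 0 to 2 by DESeq2), and Dnmt3a and Dnmt3b were called lower at day 8 than at day 3 (log2 fold changes -3.09 ± 0.57 and -5.96 ± 0.87, edgeR adjusted p = 0.022 and 0.0086). Zfp57 was at 6.44 CPM in WT at day 3, 667 CPM in 3A2, 143 CPM in 3A38, 23.6 CPM in 3B126 and 226 CPM in 3B77, and at day 6 at 54.4, 377, 58.5, 160 and 77.7 CPM in the same order. WT and 3B126, the clones of batch 2, held its lowest day 3 values.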

How the data were processed

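The deposited table holds the raw counts of Smart-seq2 reads that the authors assigned to each gene in each sorted cell, each plate being 1 clone and day. Per the study's methods and the submitters' processing notes, the reads were trimmed with Trim Galore 0.5.0, aligned to mm10 with STAR 2.7.1a and counted over exons by gene name with featureCounts 1.6.1 and GENCODE M23, reads of several places being left out. Smart-seq2 has no molecular identifiers, so PCR copies count as reads. Cells with at least 50000 assigned reads had been kept by the authors. No column lacked a sample (0). Positions and exon lengths came from GENCODE M21 on GRCm38, and promoter windows from RefSeq.

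The 33 genes and all other lists were chosen with earlier results of these data known. Counts were summed over cells of a clone and day (14 sums, with both WT day 8 plates joined), since cells are not replicates. edgeR 4.0.16 (TMM, filterByExpr, robust quasi-likelihood test) was fitted on 24083 genes with 9 means of genotype and day, and Benjamini-Hochberg adjusted p-values under 0.05 were called. WT had 1 sum a day, so the spread came from the knockout clones, 5 residual degrees of freedom. Levels are CPM scaled by TMM unless given by plate, class or cell. Shares of cells used 50000 reads drawn per cell, and exact intervals, floors of 3 reads and limits of 3 cells for a count of 0 cover counting error only. The test was checked on simulated counts with known changes between day 8 and day 3. Their spread was smaller than that of these sums (common dispersion 0.932). The check therefore does not show how many true differences between genotypes the test would miss. Full values are given for genes called in any contrast and for the 3 genes with the largest fold change in each knockout against WT at days 3 and 6, among those with both clones on 1 side and a mean of at least 5 CPM. Grb10, Snrpn and the single-cell comparison were chosen after their values were seen. Cells were clustered with Seurat 5.3.0 (2000 variable genes without the 33, integration over 3 batches, 8 components, resolution 0.8), and doublets were not called. The same clone was collected on each day, which pairs the day contrasts. Deviations of the same clone from its genotype mean correlated at 0.155 and 0.0615 between days 3 and 6, 0.0295 between days 3 and 8 and -0.000718 between days 6 and 8. Alternatives were DESeq2 1.42.0, RLE size factors, no filter, thinned cells, each clone left out, the clone as a block (edgeR or limma 3.58.1), and plates or libraries in doubt left out.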

Additional observations from a re-analysis of the deposited data

How the results depend on the processing

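Of the counts of called genes, 121 stayed within 1.5 times the count given above and 31 did not. DESeq2 called 2, 2, 1, 1, 1 and 2 of the 33 genes where edgeR called 0, which were in 3AKO over WT and 3BKO over 3AKO at day 3, 3BKO over WT and 3BKO over 3AKO at day 6, and 3AKO over WT and 3BKO over 3AKO at day 8, and it called 8 at day 6 and 14 at day 8 over day 3. With no filter on low counts the calls numbered 3 in 3BKO over 3AKO at day 3, 1, 3 and 2 in 3AKO over WT, 3BKO over WT and 3BKO over 3AKO at day 6, 1 and 2 in 3AKO over WT and 3BKO over 3AKO at day 8, and 8 and 13 in the day contrasts. With the clones left out one at a time, the calls ranged from 0 to 7 at day 6 over day 3 (0 without 3B126, 7 without 3A2, 4 without 3B77) and from 4 to 11 at day 8 over day 3 (11 without 3A2, 8 without 3B126). They ranged from 0 to 1 in 3BKO over 3AKO at each day and in 3AKO over WT at day 8, and from 0 to 2 in 3AKO over WT and 3BKO over WT at day 6. Thinning each cell gave 0 calls at day 6, and leaving out the sum of 3A38 at day 8, an alternative chosen after seeing the data, gave 0 at day 8. The cause of these differences was not tested. Apart from those of DESeq2, counts under an alternative setting are given, here, above and below, without the share of all genes called. They do not show whether a change in calls was particular to the 33 genes.

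With the clone as a replicate block, edgeR called 1 gene at day 6 (Asb4, 8.44, adjusted p = 0.0190) and 4 at day 8, where Asb4 (9.71), Airn (11.10) and Zim1 (8.04) stayed called and Mest (2.30, adjusted p = 0.115) and Peg12 (4.77, adjusted p = 0.156) did not. The limma block gave 0 calls at day 6 (Asb4, limma adjusted p = 0.0878) and 6 at day 8, without Mest (limma adjusted p = 0.0538), and 0 in each genotype contrast. Over all alternatives, fold changes of called genes kept their direction and the call 74 times, kept the direction but lost the call 16 times and never turned. RLE factors in place of TMM moved the median of all genes in 3AKO over WT at day 3 from 0.35 to 0.25, and that of the 33 genes from 0.18 to 0.08. With the mean of per-cell CPM, 117 levels stayed within the spread of the clones and 23 moved, 193 shares of cells stayed and 87 moved with all reads or a minimum of 3 reads, and 11 leading classes stayed and 7 moved with other clusterings.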
